A study of Cyprinus carpio with 6 samples.

Results

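From 60206 features counted in the gonads of juvenile common carp, the 150 transcripts described here were the steadiest that passed the limits given below. Steadiest means that their share of the reads varied least over 6 libraries. They were chosen by the measured values. Counts were divided by each library's total over all features and given as counts per 1000000 (CPM), the 100 most abundant features of each of 2 identifier classes were set aside, and features with at least 50 counts in each library were ranked by the coefficient of variation (CV, the standard deviation divided by the mean, n = 6). There were 2126 such features, called eligible below, and the 150 of lowest CV were kept, 7.06% of them. Because all 6 libraries entered the choice, the CVs are a description and no test was made on them.

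All 6 libraries came from gonads of Cyprinus carpio of the FFRC strain (FFRC No. 2 in the study's methods), 8 weeks post hatching, taken 24 h after an intraperitoneal injection. The treatment group of 3 libraries (igf3-dsRNA 1, 2 and 3, labelled igf3-knockdown) had received 5 μg/g body weight of double-stranded RNA against igf3, and the control group of 3 libraries (control 1, 2 and 3, labelled WT) had received water. No group received a double-stranded RNA of another sequence. In each group 15 fish were injected and 9 were sampled. The methods speak of 6 individuals used for sequencing, as many as there are libraries, which points to 1 fish per library. The match of fish to libraries, and whether a gonad was an ovary or a testis, is not given in the sources used here, so n counts libraries.

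Igf3 is a fish insulin-like growth factor made mainly in the gonad, where it is known to act on egg maturation and on the multiplication and differentiation of spermatogonia. RNA interference degrades the transcript that matches an injected double-stranded RNA. Steady transcripts are of use as references: a reference gene in quantitative PCR is meant to hold 1 level across samples, so that other genes can be read against it, and scaling methods for sequencing data likewise rest on transcripts that do not move. A CPM value is a share of a fixed total, so a steady CPM means a steady share of the counted RNA and not a steady number of molecules per cell. In whole gonads, fewer cells of a type and less RNA per cell cannot be told apart.

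The 60206 features carried identifiers of 2 kinds. The 49436 whose names begin with CAFS come from the carp genome annotation. The other 10770 begin with MSTRG, the prefix that StringTie gives to loci it assembles from the reads. The gene table used here held none of these identifiers. The members are therefore named by identifier only, no role can be given for any of them, and neither igf3 nor gonad marker genes were checked in the libraries. Counts on features ranged from 2064856 to 3166031 per library, 7.26 to 8.50% of the read pairs placed at a single position, and every pair of libraries differed well beyond counting noise (chi-square per degree of freedom 28.3 to 91.6). Setting aside the abundant features bears on the list: 26 of the 200 had a CV at or below that of the last member, 12 of them MSTRG and 14 CAFS.

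Of the 150 members, 111 were CAFS and 39 were MSTRG features. MSTRG features made up 35.5% of the eligible features and 26% of the members, so that 8.09% of the eligible CAFS and 5.17% of the eligible MSTRG features were chosen. The CV of the members ran from 4.35 to 17.6% with a median of 15.1%, against a median of 35.4% and a maximum of 145% over all eligible features. Only 13 members lay under 10%, 61 lay between 10 and 15%, and the other 76 at 15% or over. The members therefore crowd at the limit of the list. The last one inside, CAFS_CommonCarp_T_00151228, had a CV of 17.63%, with 25.1, 42.3 and 40.3 CPM in the controls and 41.1, 39.2 and 43.6 CPM in the treated libraries. Its spread came from a low control 1. The first one outside, CAFS_CommonCarp_T_00057055, had 17.67%, with 99.4, 85.9 and 102 CPM in the controls and 80.8, 105 and 63.9 CPM in the treated libraries. In a typical member the highest library stood 1.47 times above the lowest (median; range 1.12 to 1.74), and in a typical eligible feature 2.71 times.

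The steadiest of the eligible features was CAFS_CommonCarp_T_00154978, 3332 bases long. The controls (1, 2 and 3) held 232, 249 and 251 CPM and the treated libraries (1, 2 and 3) held 224, 246 and 242 CPM, from 583, 787, 629, 508, 767 and 499 counts in the same order. The group means were 244 ± 10.4 CPM in the control and 237 ± 11.7 CPM in the treatment libraries (SD, n = 3 each), and the groups overlapped. Its CV of 4.35% lay next to the 4.04% that counting alone would give at this depth. The second, CAFS_CommonCarp_T_00044279, held 309, 323 and 316 CPM in the controls and 279, 302 and 338 CPM in the igf3-dsRNA libraries, with a CV of 6.41%. Here the 3 controls sat close together, within the wider range of the treated libraries.

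The next CAFS features were less even. CAFS_CommonCarp_T_00132122 held 410, 444 and 410 CPM in the controls and 489, 488 and 437 CPM in the treated libraries, a CV of 7.94%. CAFS_CommonCarp_T_00075133 held 124, 106 and 93.0 CPM in the controls and 113, 108 and 109 CPM in the treated libraries, a CV of 9.21%. In the first the treated libraries were mostly the higher ones, and in the second the spread lay among the controls. CAFS_CommonCarp_T_00111438 held 76.0, 81.5 and 71.0 CPM in the controls and 68.0, 84.5 and 85.2 CPM in the treated libraries (CV 9.27%). CAFS_CommonCarp_T_00143838 held 335, 334 and 357 CPM in the controls and 296, 341 and 395 CPM in the treated libraries (CV 9.50%). In both, igf3-dsRNA 1 was the lowest library and igf3-dsRNA 3 the highest.

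Among the eligible MSTRG features the steadiest was MSTRG.50287, 399 bases long, with 187, 178 and 184 CPM in the controls and 203, 211 and 173 CPM in the igf3-dsRNA libraries (CV 7.69%). MSTRG.8681 followed with 208, 216 and 211 CPM in the controls and 204, 184 and 174 CPM in the treated libraries (CV 8.40%). In MSTRG.8681 every control lay above every treated library, 212 ± 4.05 against 187 ± 15.6 CPM (SD, n = 3 each). With the TMM scaling described below the groups overlapped (203, 272 and 188 against 235, 185 and 137). MSTRG.36581 and MSTRG.26365 had CVs of 10.4 and 11.2%. MSTRG.44188 had a CV of 11.9% that came from 1 group: its controls held 185, 185 and 195 CPM and its treated libraries 227, 161 and 213 CPM. In MSTRG.49231, with a CV of 12.0%, igf3-dsRNA 3 was the highest library at 104 CPM and the others lay between 76.4 and 91.5 CPM. A low spread over all 6 libraries was thus reached by different patterns over the libraries.

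**Figure D1:**
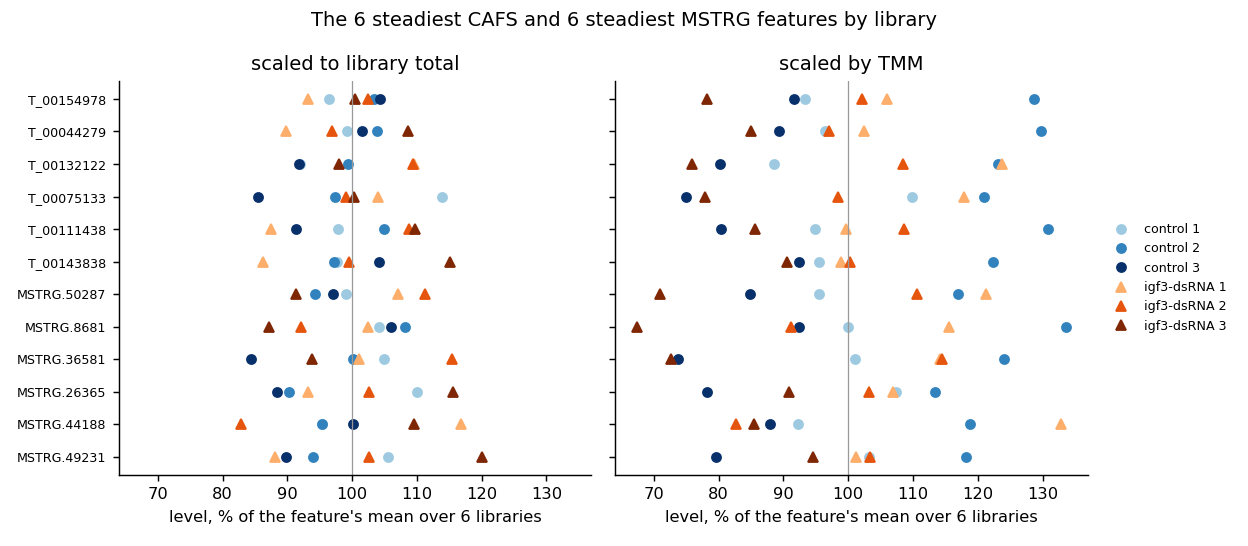
Level of the 6 steadiest CAFS features (T_ and the 8-digit number stand for the full CAFS_CommonCarp_T_ identifier) and the 6 steadiest MSTRG features in each library, as a percentage of that feature's mean over 6 libraries. Circles are the control and triangles the igf3-dsRNA libraries, with counts scaled to the library total on the left and by TMM factors on the right; under TMM the points spread, with control 2 on the high side and igf3-dsRNA 3 on the low side in most of the 12 features.

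Within the eligible features, members were found at low and high levels. Their mean level ran from 24.98 to 581 CPM with a median of 123 CPM, against 102 CPM over all eligible features. When the eligible features were split at the quartiles of mean CPM, the top quartile gave 61 members, 11.5% of its features, and the lower quartiles gave 35, 23 and 31 members, beginning with the lowest. The most abundant CAFS members in CPM were CAFS_CommonCarp_T_00132683, CAFS_CommonCarp_T_00129500 and CAFS_CommonCarp_T_00122680. CAFS_CommonCarp_T_00132683 held 663, 590 and 594 CPM in the controls and 395, 581 and 663 CPM in the treated libraries, so that igf3-dsRNA 1 stood apart below the rest. In CAFS_CommonCarp_T_00129500 it was control 2 that was lowest, with 388 CPM where control 1 and 3 held 657 and 569 and the treated libraries 501, 574 and 493 CPM. CAFS_CommonCarp_T_00122680 gave almost the same mean in both groups, 492 ± 69.3 CPM in the control and 491 ± 55.9 CPM in the treatment libraries (SD, n = 3 each).

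The most abundant MSTRG members in CPM were MSTRG.51579, MSTRG.8746 and MSTRG.19073. MSTRG.51579 held 447, 547 and 520 CPM in the controls and 411, 394 and 473 CPM in the treated libraries. MSTRG.8746 was low in igf3-dsRNA 3 alone, at 315 CPM where the other libraries held 416 to 522 CPM. MSTRG.19073 was high in that library, at 515 CPM where the others held 314 to 440 CPM. The same library thus set the low end of 1 of these features and the high end of another.

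Levels of different features can be compared only per length, for which the deposited RPKM values (reads scaled to the length of the feature and to the clean reads of the library) were used. The MSTRG members were short, with a median of 302 bases, and the CAFS members had a median of 2737 bases, close to the 295 and 2906 bases of the eligible features of each class. On the RPKM scale the mean level of the MSTRG members had a median of 9.13 and that of the CAFS members 1.15. Over the eligible features of each class the medians were 7.45 and 1.01, so this difference was not particular to the members. The highest was MSTRG.8746, with a mean of 38.9 RPKM. The study selected cDNA fragments longer than the median MSTRG member, so levels per length are uncertain for features this short. How this bears on the difference between the classes was not tested. Members under 500 bases numbered 34, or 22.7%, against 32.3% of the eligible features, and 33 of the 34 were MSTRG features. The longest CAFS member, CAFS_CommonCarp_T_00029334 with 12947 bases, held a mean of 0.0898 RPKM, and the shortest, CAFS_CommonCarp_T_00202977 with 406 bases, held 10.3 RPKM. Among MSTRG members the longest was MSTRG.51153 with 1214 bases and the shortest MSTRG.42910 with 212 bases. In 3 cases a pair of MSTRG members had numbers within 10 of each other (MSTRG.6714 and MSTRG.6716, MSTRG.21032 and MSTRG.21035, MSTRG.50281 and MSTRG.50287). Whether such pairs lie side by side in the genome was not analysed here.

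How much of the spread was counting noise was asked next, since a feature of few counts cannot have a low CV by counting alone. The CV of a member was 2.53 times the CV expected from its counts (median; range 1.006 to 6.50), against 5.78 times over all eligible features. Measured as the chi-square of the 6 counts against library totals, divided by 5 degrees of freedom, the members had a median of 6.51 and a range of 1.03 to 45.3, and the eligible features a median of 35.0. A value near 1 is what counting alone would give. It was under 2 in 12 members, which were all of the eligible features under 2, and under 1 in 0. Most members therefore varied more than counting alone would give. That they lay below other eligible features on these measures follows from the rule, which used the same 6 values.

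The 3 members nearest to counting noise were modest in depth. CAFS_CommonCarp_T_00028147 had 88, 128 and 114 counts in the controls and 106, 134 and 88 in the treated libraries, and its value was 1.03. CAFS_CommonCarp_T_00255923 had 99, 116, 116, 105, 122 and 82 counts in the same order (1.05). CAFS_CommonCarp_T_00247296 had 76, 78, 55, 54, 69 and 57 (1.08). Under library totals their CVs of 9.92, 9.86 and 13.0% lay next to counting CVs of 9.67, 9.79 and 12.6%. They were picked as the lowest on values that the rule had used, so low values were built in. Under the TMM scaling described below their CVs were 19.6, 17.9 and 18.6%. At the other end stood CAFS_CommonCarp_T_00129500 (45.3) and CAFS_CommonCarp_T_00132683 (37.7), with 1017 to 1787 and 895 to 1869 counts per library.

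**Figure D2:**
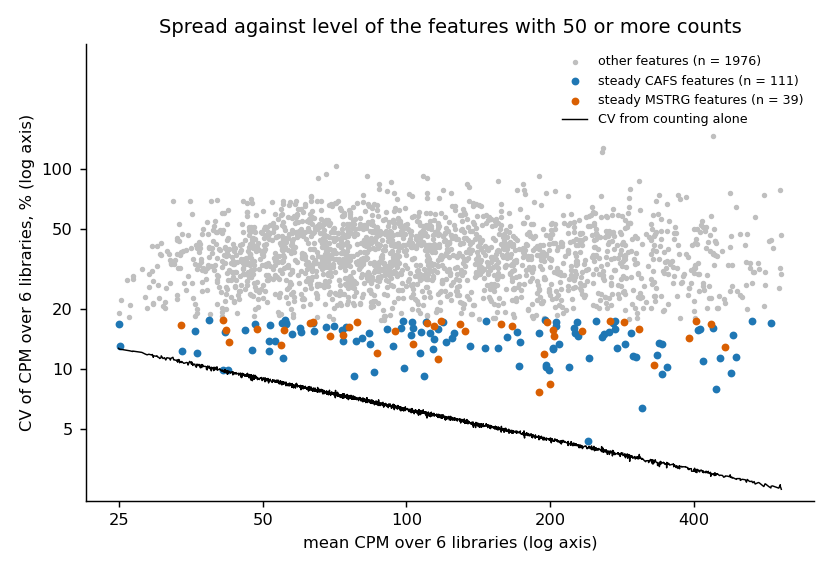
CV of CPM over the 6 libraries against mean CPM for the 2126 eligible features, both on log axes, with the CAFS members in blue, the MSTRG members in orange and the other features in grey. The line joins the CV that counting alone gives for each feature; members lie between 4.35 and 17.6%, and no feature lies below 1.006 times its counting CV.

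The libraries themselves differed in how the counts were shared out. The 200 abundant features set aside took the largest share of the counts in control 2, 68.1%, and the smallest in igf3-dsRNA 3, 53.9%. The eligible features moved the opposite way: relative to its own mean over 6 libraries, the median eligible feature stood at -0.47 (log2) in control 2, -0.25 in igf3-dsRNA 1, 0.15 in control 3 and 0.21 in igf3-dsRNA 3. The members, by construction, moved little. Their median stood between -0.06 (control 2) and 0.04 (igf3-dsRNA 3), and together they took between 2.56 and 2.67% of the counts of each library. The highest library was igf3-dsRNA 3 in 42 members, the most of any library. The lowest was igf3-dsRNA 2 in 33 and control 2 in 32 members. Among eligible features control 2 was the lowest library in 42.5% and igf3-dsRNA 3 the highest in 30.2%.

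Scaling that follows the bulk of the features gave another picture. TMM, the factor of edgeR that centres most features on each other, was lowest in control 2 (0.794) and highest in igf3-dsRNA 3 (1.27). On TMM-scaled CPM the members' median stood at 0.25 (log2) in control 2 and at -0.32 in igf3-dsRNA 3. The members' median CV went from 15.1 to 19.97%, while that of all eligible features went from 35.4 to 32.7%, and 32 members passed 25%. The members had been chosen for a low CV under library totals. Their rise under TMM follows in part from that choice and does not weigh the scalings against each other. For CAFS_CommonCarp_T_00154978 the TMM-scaled CPM was 227, 313 and 223 in the controls and 258, 248 and 190 in the treated libraries, a CV of 17.0%, and it ranked 168th. The values that were nearly level under library totals were then high in control 2 and low in igf3-dsRNA 3. Which of the scalings matches the RNA content of the tissue was not tested, and no RNA standard added to the libraries is named in the sources used here.

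**Figure D3:**
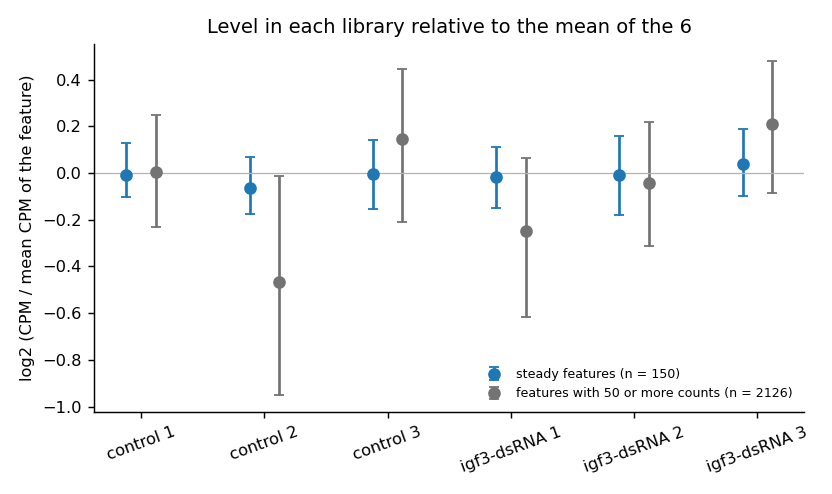
Level of each library relative to a feature's mean over 6 libraries (log2, counts scaled to the library total), for the 150 members in blue and all 2126 eligible features in grey. Points are medians over features and bars run from the first to the third quartile; the members' medians stay between -0.06 and 0.04 while those of the eligible features run from -0.47 in control 2 to 0.21 in igf3-dsRNA 3.

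The list was therefore counted again under other choices. With TMM factors 44 of the 150 members were again among the 150 features of lowest CV, with RLE factors 39, with upper-quartile factors 38, and with library totals computed without the 200 abundant features 58. Scaling to the clean reads of each library, which changes the totals little relative to each other, kept 127. A measure that needs no scaling, the mean SD of a feature's log2 ratios to all other eligible features, kept 41. Changing the count minimum from 50 to 20 or 100 kept 141 or 132, and a minimum of 200 kept 88. Keeping the abundant features in the ranking left 126. Measures of spread on the same CPM kept between 118 (CV about the group means) and 141 (SD of log2 CPM). Leaving out 1 library kept between 81 (without control 2) and 119 (without control 1) members, with 99 without igf3-dsRNA 1. TMM, RLE and upper-quartile factors thus changed the list more than other measures of spread on the same CPM did.

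**Figure D4:**
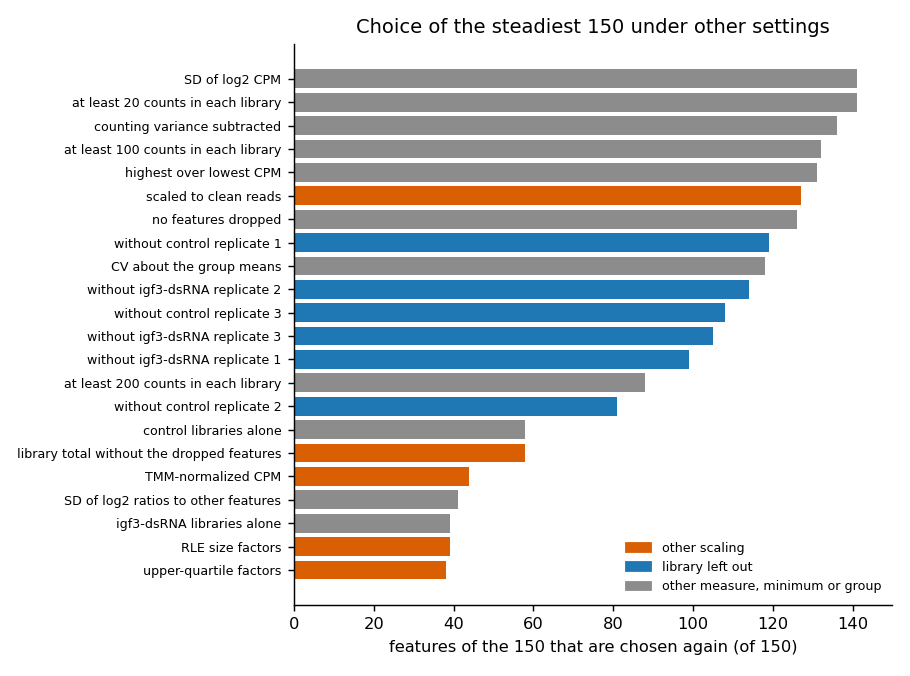
Number of the 150 members that are again among the 150 steadiest features when 1 choice is changed. Bars start at 0 and are coloured by the kind of change (another scaling, a library left out, or another measure, minimum or group); the lowest is 38 with upper-quartile factors and the highest is 141.

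A smaller number held under 5 scalings, which did not include library totals without the abundant features. Under library totals, TMM, RLE, upper-quartile and clean-read scaling alike, 33 members (12 MSTRG and 21 CAFS) were among the 150 of lowest CV. The 5 scalings were not separate checks. TMM and RLE factors were close to each other in every library, and TMM, RLE and upper-quartile scaling alone left the same 33 members. Of these, 16 were also chosen whichever of the 6 libraries was left out, by library totals only. This subset was picked after the values were seen, and no test was made on it. Across the 5 scalings the highest CV of any of the 33 was 17.6%. Their mean level ran from 24.98 to 483 CPM and their length from 229 to 12947 bases. The rank that was worst across scalings was lowest, at 28th, in CAFS_CommonCarp_T_00060911. It held 350, 316 and 400 CPM in the controls and 319, 331 and 388 CPM in the treated libraries, and under TMM 342, 399, 355, 366, 334 and 306 in the same order. Its CV was 10.2% by library total and 8.94% by TMM, with the order of the libraries changed.

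CAFS_CommonCarp_T_00197991 (worst rank 41) held 267, 237 and 317 CPM in the controls and 256, 258 and 323 CPM in the treated libraries. Under TMM these became 262, 298, 282, 295, 260 and 254, and its CV went from 12.8 to 6.85%. Under library totals this feature, like the median eligible feature, was low in control 2 and high in control 3 and igf3-dsRNA 3. CAFS_CommonCarp_T_00029334 (worst rank 44), the longest member, held 44.5, 41.7 and 47.9 CPM in the controls and 41.5, 54.0 and 54.7 CPM in the treated libraries. MSTRG.37508 (worst rank 47), of 232 bases, held 61.3, 47.4 and 64.2 CPM in the controls and 47.2, 51.4 and 56.7 CPM in the treated libraries. These last 2 rest on 94 to 168 and 107 to 161 counts per library. Of the 12 steadiest named above, only CAFS_CommonCarp_T_00143838, MSTRG.26365 and MSTRG.49231 were among the 16.

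For the comparison of the groups, edgeR's quasi-likelihood test was run over the whole table. With a change of more than 1 (log2) and a Benjamini-Hochberg adjusted p below 0.05 required, it called 0 of 5843 features, 0%, with 159 at an unadjusted p under 0.05. DESeq2 called 15 and edgeR without a filter on low counts 112. The study itself, naming edgeR 3.22.3 and the same thresholds in its methods, reported differentially expressed lncRNAs and mRNAs. It also reported quantitative PCR trends that matched for those it selected. Its results, however, give the p threshold without saying that p was adjusted, and its transcripts outnumber the features counted here. Its calls and those made here are thus not like for like. Why the calls made here differ was not tested. All 150 members were in the edgeR test made here and 0 were called. Since the rule used this contrast, that says nothing about the members. Their fitted log2 fold changes ran from -0.41 in CAFS_CommonCarp_T_00123300 to 0.29 in CAFS_CommonCarp_T_00247584, with a median of -0.08, and -0.02 over all features tested. The sign turned with the scaling, which moves all features of a library alike: the control mean was the higher one in 98 members under TMM and in 71 under library totals. It also turned with single libraries. Under TMM the members' median fitted change was 0.07 without control 2 and 0.05 without igf3-dsRNA 3. With any other library left out it stayed negative. Of all features tested, 48.0% had a positive fitted change.

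In CAFS_CommonCarp_T_00123300 the controls held 126, 128 and 131 CPM and the treated libraries 84.3, 105 and 126 CPM, so that igf3-dsRNA 3 reached the lowest control. In CAFS_CommonCarp_T_00247584 the controls held 66.0, 72.6 and 79.4 CPM and the treated libraries 92.3, 94.1 and 96.9 CPM. The groups did not overlap in this feature, at 72.7 ± 6.68 against 94.4 ± 2.32 CPM (SD, n = 3 each), although under TMM they did (64.6, 91.5 and 70.5 against 106, 94.9 and 76.3). Such a gap on library-total CPM was found in 12 members, 8% (9 higher in the treated libraries and 3 higher in the controls), and in 3.9% of the eligible features. A low CV over 6 libraries thus did not require that the groups overlap. The rule used these same values and no test was made, so the 8% beside 3.9% is not a result about the members. With 3 libraries per group such gaps also arise without any effect of the treatment. The other 11 were MSTRG.8681, CAFS_CommonCarp_T_00037190 and CAFS_CommonCarp_T_00241109 (higher in the controls) and MSTRG.29585, MSTRG.42410, MSTRG.46941, CAFS_CommonCarp_T_00009548, CAFS_CommonCarp_T_00053547, CAFS_CommonCarp_T_00127533, CAFS_CommonCarp_T_00216494 and CAFS_CommonCarp_T_00278065 (higher in the treated libraries). Under TMM the groups overlapped in all 3 that were higher in the controls. They also overlapped in MSTRG.29585, CAFS_CommonCarp_T_00127533, CAFS_CommonCarp_T_00216494 and CAFS_CommonCarp_T_00278065. The share of features with such a gap under TMM was not computed for all members or all eligible features. None of the 40 features in the study's primer table was a member, and 5 of them were eligible. The study had drawn these 40 from its differentially expressed lncRNAs and mRNAs. Their absence from a list of low CV therefore tells nothing further about the members.

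Whether steadiness carries over to libraries that did not enter the choice was measured in 2 ways. First, 150 eligible features were chosen on the 3 controls alone, where their median CV was 7.23%. In the 3 igf3-dsRNA libraries the same features had a median CV of 27.5%, against 30.9% over all eligible features, and 13 of the 150 (8.67%) were among the lowest 10%. Chosen on the igf3-dsRNA libraries (7.11%), the features had a median CV of 35.1% in the controls, against 36.9%, and again 13 were among the lowest 10%. The 2 selections held 58 and 39 of the members. Over the 2126 features, which share libraries and totals, Spearman's rho between the CV in one group and in the other was 0.16. By these medians, features steady in the 3 libraries of a group were only a little less spread than the eligible features in the other group. A CV from 3 libraries is itself uncertain, and most of the features chosen in this way were not members. The values therefore do not measure how steady the members would be in other libraries. A rise above the CV where they were chosen follows from keeping the lowest values. The split of libraries was also the split by treatment. Spread between libraries and an effect of the treatment therefore cannot be told apart here.

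Single libraries weighed on these values. Without igf3-dsRNA 1, the features chosen on the controls had a median CV of 17.1% in the other 2 treated libraries, against 22.4% over all eligible features. Without igf3-dsRNA 3 both medians were 24.4% and rho was 0.006. Without control 2, the features chosen on the treated libraries had a median CV of 20.4% in the other 2 controls, against 21.9%. The order turned without control 3 (32.7% against 32.3% over all eligible features) and without igf3-dsRNA 3 (38.0% against 36.9%). Under TMM the medians were 22.6% against 28.7% in the treated libraries and 32.5% against 33.4% in the controls. The eligible features had been set by the counts of all 6 libraries, so the left-out libraries were not wholly unused.

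**Figure D5:**
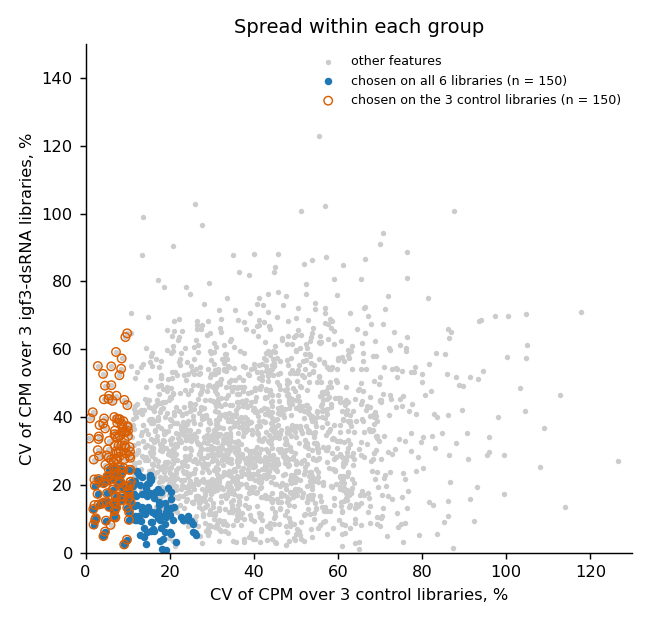
CV of CPM over the 3 control libraries (x axis) and over the 3 igf3-dsRNA libraries (y axis), both in percent, for the 2126 eligible features in grey, with the 150 members as blue points and the 150 features chosen on the controls alone as orange rings. The rings lie far to the left but spread up the y axis, with a median of 27.5%, while the members are low on both axes because both groups entered their choice.

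Second, 150 features were chosen on 5 libraries and read in the remaining one. The median absolute log2 difference from the mean of the 5 was 0.21 in control 1, where all eligible features gave 0.29. It was 0.50 against 0.66 in control 2, 0.27 against 0.43 in control 3 and 0.33 against 0.44 in igf3-dsRNA 1. In igf3-dsRNA 2 the values were 0.31 and 0.32, and in igf3-dsRNA 3 they were 0.31 and 0.42. In each of the 6 libraries the chosen features were thus nearer to their level elsewhere than the median eligible feature was, by little in igf3-dsRNA 2. These differences include the shift of the whole library. With the median shift of the eligible features removed, controls 1, 2 and 3 gave 0.21 against 0.29, 0.48 against 0.53 and 0.33 against 0.39. The igf3-dsRNA libraries 1, 2 and 3 gave 0.38 against 0.40, 0.29 against 0.31 and 0.25 against 0.35. The gain was then small in igf3-dsRNA 1 too. Control 2 stood farthest from the rest: 26 of the 150 features chosen without it differed by more than 1 (log2) there, against 1 to 8 in the other libraries. Over all eligible features the share that differed so was 30.9% in control 2 (656 of 2126) and 4.89 to 14.2% in the other libraries.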

How the data were processed

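Strand-specific, ribosomal RNA-depleted gonad libraries (3 control, 3 igf3-dsRNA) were sequenced, and the authors mapped the reads with Hisat2 (carp genome version 3.0) and assembled transcripts with StringTie 1.3.3b. The authors deposited unnormalized counts of read pairs per feature, and the 2 deposited count tables were the same in every feature. They also deposited RPKM values, from which feature lengths were taken. The counting program and its strand setting are not given in the sources used here, so features that overlap on opposite strands, and near-identical copies, are uncertain. Pairs assigned to no feature (91.4 to 92.6% of uniquely placed pairs) were left out of totals.

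CPM, CVs and lists were computed with Python 3.11.15 and pandas 2.3.3. TMM, RLE and upper-quartile factors, on the features kept by filterByExpr, and the quasi-likelihood test with Benjamini-Hochberg adjustment came from edgeR 4.0.16 (R 4.3.3), clean-read totals came from the study, and DESeq2 1.42.0 was an alternative. The code was tested on simulated data. The steady features planted there varied little beyond counting noise, and the libraries they were planted in did not differ in composition. That run checks the code and not the list of members. Counting CVs cover counting error only. The match of fish to libraries is not stated, so p-values measure the spread between libraries.

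The members and lists were chosen with earlier results of these data known. Named members were the 6 of lowest CV and the 3 of highest mean CPM in each class, the last inside and first outside, the extremes of fold change and length, the 4 of lowest worst rank over scalings, and the 3 lowest and 2 highest in chi-square. Features named for groups that did not overlap or for neighbouring numbers, the bounds used to count members (such as a CV of 10, 15 or 25%) and the list of 33 were chosen after their values were seen. Scalings, count minimums, spread measures and left-out libraries were varied. The log2-ratio measure, the choice on 1 group alone, and RLE, upper-quartile and leave-one-out values of the 3-library choice were added after seeing the data.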

Additional observations from a re-analysis of the deposited data

How the results depend on the processing

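Of the 150 members, 44 were chosen again with TMM, 39 with RLE and 38 with upper-quartile factors, 58 with library totals that left out the abundant features, 88 with a minimum of 200 counts, 41 by log2 ratios, 58 on the controls alone and 39 on the igf3-dsRNA libraries alone. Leaving out 1 library gave 81 to 119. Their median CV was 19.97, 20.5 and 21.4% with TMM, RLE and upper-quartile factors, against 15.1%. The CV of the 32 named features moved by more than the members' SD (2.70 points) in 77 of 128 comparisons with 4 other scalings, and in 16 of 192 with 1 library left out. The members, and so all named features but the first outside, had been chosen for a low CV under library totals. Higher CVs under other scalings follow in part from that choice. In the group comparison edgeR called 0 features, 112 without a filter on low counts and 15 with DESeq2, and 0 with each library left out in turn.

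Same-numbered libraries of the 2 groups deviated together weakly (correlations of 0.015, -0.001 and 0.098). Libraries of different numbers gave -0.088 to 0.069. With 3 libraries per group, whose deviations sum to 0, these values cannot show whether same-numbered libraries share more than a number. With the replicate number as a block, edgeR called 0 features and 153 had an unadjusted p under 0.05, against 159 without the block. No block was applied to the CVs. Counting alone gave the members a CV of 2.60 to 12.6%. This was close to the CV found in a few of them, such as CAFS_CommonCarp_T_00154978 (4.04 against 4.35%). Over the members the CV found was 2.53 times the counting CV (median).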
